A study of Mus musculus with 12 samples.

Results

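Tumors of the hindbrain choroid plexus (CP) were set against wild-type CP at birth (P0) and at postnatal day 21 (P21), and the result described here is the difference between the tumor effects at these ages. For each gene the tumor effect is the mean log2 signal of the tumors minus that of wild-type CP of the same age. The interaction is the P21 tumor effect minus the P0 tumor effect, so a positive interaction means that the tumor stood higher relative to wild-type CP at P21 than at P0. All 12379 genes with a detected probe, of 19053 named on the array, were tested for it over all 12 arrays. Detection was the only measured criterion for including a gene, and no difference between groups was used.

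The tumors came from Math1-cre;Rosa26-NICD1 mice and the control tissue from wild-type mice, all on the C57BL/6 strain background, with 3 arrays each for P0 CP tumor, P0 CP, P21 CP tumor and P21 CP. In the tumor mice, Cre recombinase made under the Math1 (Atoh1) promoter acts on the Rosa26-NICD1 allele, which carries the intracellular domain of the Notch1 receptor. The allele is thus expected in cells with a history of Math1 expression and not in the vessels, stroma or immune cells of the same piece of tissue. Every array held RNA of a pool of animals, and how many animals or litters made up a pool is not stated by the labels. The p-values therefore measure the spread between pools. The series title points to the questions of Notch holding back multiciliated cell differentiation, of tumor initiation from progenitors, and of epithelial Sonic hedgehog.

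The CP is an epithelium that secretes cerebrospinal fluid into the brain ventricles. Its cells descend from dividing progenitors next to the roof plate, leave the cell cycle, and grow a tuft of motile cilia. Notch receptors are cleaved on ligand binding, and the freed intracellular domain joins the DNA-binding protein RBPJ to switch on genes of the Hes and Hey repressors, which hold progenitors back from differentiation. In the developing hindbrain CP, Sonic hedgehog made by the epithelium stimulates division of the neighbouring progenitors.

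Between 19043 and 23632 probes were detected on an array. Each age had a BeadChip of its own, and on both BeadChips the tumors took positions A to C. A shift shared by a BeadChip or by these positions drops out of the interaction where it adds on the log2 scale, whereas age and BeadChip cannot be told apart in a P21 against P0 difference within 1 tissue. The arrays P21 tumor 1 and P0 wild-type 1 had the lowest mean correlations with their own group, 0.949 and 0.946, against 0.990 for each P21 wild-type array. P21 tumor 1 also carried markers of other brain cells. The mean log2 signal of 14 neuron genes was 10.33 on this array, 6.92 and 5.93 on the other P21 tumors and 7.03 to 7.23 on P21 wild-type arrays. For 12 oligodendrocyte lineage genes the corresponding values were 10.58, 8.04, 7.64 and 8.69 to 9.04, and for 4 granule neuron genes 10.61, 7.25, 6.36 and 7.33 to 7.81. Of 10 marker genes of CP epithelium, 7 were tested, all were detected on all 12 arrays, and none was called in the interaction, with values from -0.40 to 0.13. Ttr, which encodes the thyroxine carrier transthyretin, had an interaction of -0.07 ± 0.21 (SE, adjusted p = 0.907). Of 4 sex-linked genes tested none was called in the interaction, but all 4 were below 0 (median -1.36). At P21, 2 of them were called lower in tumors, against 921 of all 12379 genes. The sex make-up of the pools was not tested.

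The interaction passed an adjusted p of 0.05 in limma for 549 genes, or 4.43% of those tested. It was positive for 388 of them (3.13%) and negative for 161 (1.3%), and all but 1 of the 549 differed by at least 1 log2 unit. At an unadjusted p under 0.05 there were 2105 genes. The median interaction over all genes tested was 0.02 log2. The tumor effects from which it is built were called for 11.3% of genes at P0 and for 17.9% at P21, and the age differences for 20.3% in wild-type CP and 20.2% in tumors. The count was 538 without P21 tumor 1, and 611 without P21 tumor 1 and P0 wild-type 1 together. It was 280 without P21 tumor 2, 313 without P0 tumor 3, 315 without P21 wild-type 2, 335 without P21 wild-type 1 and 337 without P21 wild-type 3. Leaving out each array in turn left 248 of the 549 genes called every time.

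**Figure D1:**
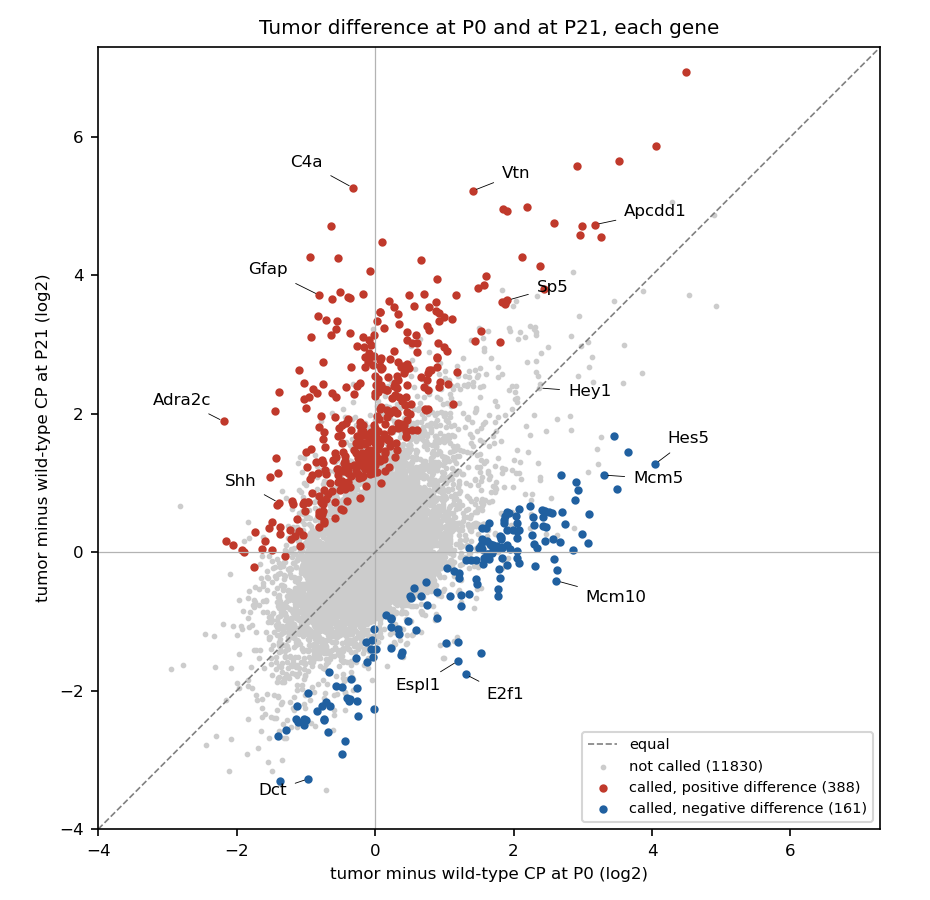
Tumor minus wild-type CP (log2) at P0 on the horizontal axis and at P21 on the vertical axis, 1 point for each of 12379 genes, with the 388 positive and 161 negative interaction calls coloured and the dashed line marking equal effects. C4a lies near 0 at P0 and above 5 at P21, E2f1 lies to the right of 0 and below it, and Hey1 lies on the dashed line.

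A call at P21 alone was the most common form of the 549 differences. In 285 genes the tumor was higher at P21 with no call at P0, and in 37 it was lower at P21 with no call at P0. The tumor was higher at P0 alone in 92 genes and lower at P0 alone in 36. Both ages passed in the same direction for 45 genes that were higher with a larger effect at P21, 15 that were lower with a larger effect at P21, and 6 that were higher with a smaller effect at P21. The tumor effect changed direction, with both ages past the threshold, in 23 genes: 14 went from lower to higher and 9 from higher to lower. In the remaining 10 genes neither age passed by itself. These forms depend on the calls at each age, which moved with the variance model. There were 1397 calls at P0 and 2221 at P21 in this fit, but 644 and 3517 with array weights per group. The tumor effect was larger in size at P21 for 398 genes and at P0 for 151.

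The interaction is equally the age difference in tumors minus the age difference in wild-type CP. Among the positive genes, 168 were higher at P21 than at P0 in tumors with no call in wild-type CP, and 142 were lower at P21 in wild-type CP with no call in tumors. Another 35 were lower with age in wild-type CP and higher with age in tumors. Among the negative genes, 67 were lower with age in tumors with no call in wild-type CP, 50 were lower in both, and 30 were higher with age in wild-type CP with no call in tumors. The tumor had the larger age difference for 330 of the 549 genes and wild-type CP for 219.

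**Figure D2:**
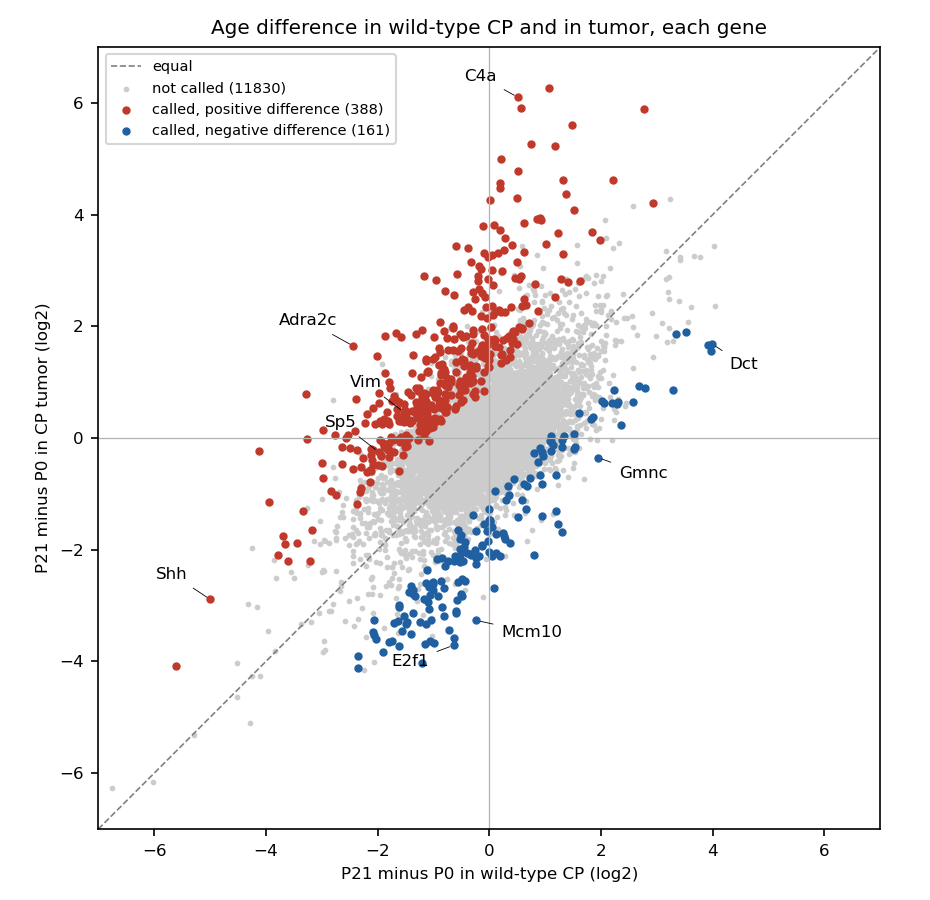
P21 minus P0 (log2) in wild-type CP on the horizontal axis and in tumor on the vertical axis, 1 point per gene, coloured by the interaction call, with the dashed line marking equal age differences. C4a and E2f1 moved in tumors and little in wild-type CP, whereas Sp5 and Vim lie to the left of 0 in wild-type CP and near 0 in tumors.

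Genes of DNA replication and mitosis were prominent among the negative calls. The newborn tumors carried an excess of these transcripts over newborn CP that was small or absent at P21. Of 24 DNA replication genes tested, 11 were called and all 11 were negative, and of 16 mitosis genes 10 were called, again all negative, against 1.3% of all genes. The median interaction was -1.47 log2 for replication genes, all 24 of them below 0, and -1.55 for mitosis genes, 15 of 16 below 0, against 0.02 over all genes. The median tumor effect of the replication genes was 1.71 at P0 and 0.12 at P21, and that of the mitosis genes 1.92 and 0.58. In tumors 23 of 24 replication genes were called lower at P21 than at P0, against 10.3% of all genes, and in wild-type CP 11, against 13% of all genes. The median age difference of the list was -0.76 log2 in wild-type CP. On leaving out each array in turn, 8 to 15 replication genes and 6 to 10 mitosis genes were called, and without P21 tumor 1 there were 10 and 9. Fewer dividing cells and less of these RNAs per cell cannot be told apart in whole tissue.

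E2f1, a transcription factor that switches on genes of DNA synthesis, had the most negative interaction of all called genes. Its normalized log2 signal was 10.73, 10.32 and 10.58 in P0 tumors and 9.01, 9.63 and 9.08 in P0 wild-type CP. At P21 it was 6.89, 6.74 and 6.88 in tumors and 8.82, 8.47 and 8.51 in wild-type CP. Every P0 tumor array thus lay above every P0 wild-type array, and every P21 tumor array lay below every P21 wild-type array. The tumor effect was 1.31 log2 at P0 (2.47-fold higher) and -1.76 at P21 (3.40-fold lower), and the interaction was -3.07 ± 0.30 (SE, n = 3 per group, limma adjusted p = 0.000182). Between P0 and P21 the E2f1 signal was 13.1-fold lower in tumors and 1.56-fold lower in wild-type CP.

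Mcm10, which helps to load and start the replication helicase, read 9.85, 10.29 and 10.13 in P0 tumors, 7.16, 7.54 and 7.70 in P0 CP, 6.95, 6.60 and 6.92 in P21 tumors and 7.11, 7.46 and 7.13 in P21 CP. The P0 tumors stood apart from all other arrays, and the P21 tumors lay just under the P21 controls. The interaction was -3.03 ± 0.30 (adjusted p = 0.000198). Mcm5, a subunit of that helicase, kept a smaller excess at P21. It read 12.62, 12.97 and 12.75 in P0 tumors, 9.03, 9.76 and 9.63 in P0 CP, 9.36, 9.68 and 9.32 in P21 tumors and 8.30, 8.11 and 8.59 in P21 CP. Tumor and wild-type arrays did not overlap at either age, but the effect was 9.88-fold at P0 and 2.17-fold at P21 (interaction -2.19 ± 0.32, adjusted p = 0.00271). Cdc6, the helicase loader, had tumor effects of 1.77 at P0 and -0.54 at P21 (interaction -2.31 ± 0.40, adjusted p = 0.00715). Uhrf1, which guides maintenance of DNA methylation behind the replication fork, had effects of 2.30 and 0.12 (interaction -2.18 ± 0.29, adjusted p = 0.00144).

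Among mitosis genes, Plk1, a kinase of mitotic entry and spindle assembly, read 10.01, 9.89 and 10.36 in P0 tumors, 8.01, 7.61 and 7.72 in P0 CP, 6.54, 7.05 and 7.38 in P21 tumors and 7.16, 7.14 and 7.24 in P21 CP. The groups were separate at P0 and overlapped at P21, and the interaction was -2.50 ± 0.32 (adjusted p = 0.00128). The spindle kinase genes Aurka and Aurkb had interactions of -1.76 ± 0.30 (adjusted p = 0.00587) and -2.12 ± 0.41 (adjusted p = 0.0127). Kif11, the spindle motor that pushes the poles apart, had tumor effects of 2.42 at P0 and 0.60 at P21 (interaction -1.81 ± 0.33, adjusted p = 0.00869). Its probe was not well above background on any P21 wild-type array. Bub1b, a kinase of the spindle checkpoint, had effects of 1.78 and 0.07 (interaction -1.71 ± 0.31, adjusted p = 0.00869). E2f1 and the replication and mitosis genes named here were called without each array in turn.

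Reversals of the tumor effect were found among cell division genes too. Espl1, the separase that cuts sister chromatids apart, was higher in tumors at P0 (1.20 log2) and lower at P21 (-1.57), with an interaction of -2.77 ± 0.49 (adjusted p = 0.00736). Besides E2f1, Espl1 and Ddn, the 6 other genes that went from higher to lower were Gtse1, Mybl2, Ncaph, Shmt1, Rcc1 and Apex2, which were named after their values were seen. Mybl2, a transcription factor of late cell cycle genes, went from 1.24 to -0.78, and Ncaph, a condensin subunit, from 1.24 to -0.62. Ddn, a gene first described in neuronal dendrites, went from 1.52 to -1.46 (interaction -2.98 ± 0.45, adjusted p = 0.00288).

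Promoter sequence is shown for genes of 3 groups on which the results turn, the cell division genes, a Notch target and a Wnt target, as the 250 bases before the RefSeq start on assembly GRCm38.p6. Letters of the motif searched, on either strand, are in capitals, and a match is a description of letters and not a known site. For Mcm5 and Cdc6 the capitals mark E2F motifs (TTTCCCGC, TTTCGCGC, TTTGCCGC or TTTGGCGC), of which Mcm5 holds 2 overlapping matches. For Kif11 they mark the cell cycle homology region (CHR) motif TTTGAA, read on the other strand.
Mcm5 promoter, chr8:75109259-75109508, plus strand: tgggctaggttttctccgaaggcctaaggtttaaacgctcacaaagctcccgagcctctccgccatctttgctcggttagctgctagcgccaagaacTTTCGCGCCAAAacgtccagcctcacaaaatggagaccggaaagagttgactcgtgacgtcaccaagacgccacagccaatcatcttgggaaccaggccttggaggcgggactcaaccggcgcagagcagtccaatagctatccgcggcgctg
Cdc6 promoter, chr11:98907901-98908150, plus strand: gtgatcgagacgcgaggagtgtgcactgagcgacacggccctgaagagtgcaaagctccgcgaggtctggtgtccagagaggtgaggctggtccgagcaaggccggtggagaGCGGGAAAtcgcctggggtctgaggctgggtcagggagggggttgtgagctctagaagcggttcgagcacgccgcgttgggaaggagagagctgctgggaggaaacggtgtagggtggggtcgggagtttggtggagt
Kif11 promoter, chr19:37376132-37376381, plus strand: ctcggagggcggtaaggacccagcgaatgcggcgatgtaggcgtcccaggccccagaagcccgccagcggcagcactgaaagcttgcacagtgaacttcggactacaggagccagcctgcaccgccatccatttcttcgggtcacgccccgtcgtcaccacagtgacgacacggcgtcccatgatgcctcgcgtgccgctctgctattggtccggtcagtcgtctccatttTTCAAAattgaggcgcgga

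Promoters in the RefSeq table, from 250 bases before to 50 after the start, were found for 9962 of the 12379 genes tested. An E2F motif was present in 4.37% of these and a CHR motif in 14.3%. Of 92 genes that were higher in tumors at P0 alone with a negative interaction, 75 had a promoter, and 16% of those held an E2F motif and 44% a CHR motif. The E2F motif was found in 38.1% of 21 replication gene promoters and the CHR motif in 78.6% of 14 mitosis gene promoters. Of the 292 promoters of positive genes, 2.4% held the E2F motif and 14.4% the CHR motif. These shares describe the promoters and were not tested.

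The positive side was led by genes of astrocytes and of complement. In newborn tumors 1 of 14 astrocyte genes, Slc1a3, and none of 8 complement genes was called higher than in wild-type CP, against 7 and 5 in P21 tumors; over all genes 5% were called higher at P0 and 10.5% at P21. Of 14 astrocyte genes tested, 5 were called, all positive, with a median interaction of 1.90 log2, and of 15 reactive astrocyte genes 5 were called, all positive, with a median of 1.49 and all 15 above 0. Positive calls made up 3.13% of all genes. Gfap and Vim belong to more than 1 of these lists. The median tumor effect of the astrocyte genes was -0.33 at P0 and 1.62 at P21.

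Gfap, the intermediate filament of astrocytes, read 7.0, 6.68 and 6.51 in P0 tumors and 8.03, 8.15 and 6.43 in P0 CP. At P21 it read 12.50, 12.25 and 11.23 in tumors and 8.26, 8.22 and 8.37 in CP. Tumor and wild-type arrays overlapped at P0 and were far apart at P21. The P21 effect was 13.1-fold and the interaction was 4.52 ± 0.60 (adjusted p = 0.00144), or 4.29 without P21 tumor 1 (adjusted p = 0.00235). Slc1a3, the glial glutamate transporter, was already higher in tumors at P0 (2.96-fold) and more so at P21 (14.5-fold, interaction 2.29 ± 0.39, adjusted p = 0.00599). Slc25a18, a mitochondrial glutamate carrier, had an interaction of 5.20 ± 0.48 (adjusted p = 0.000165), and Mmd2 one of 4.78 ± 0.89 (adjusted p = 0.00948). The gap junction gene Gjb6 had effects of -0.14 and 1.57 (interaction 1.70 ± 0.31, adjusted p = 0.0093).

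The mean of the astrocyte list and that of neuron markers were both highest on P21 tumor 1 and lowest on P21 tumor 3, whereas the reactive astrocyte mean was lowest on P21 tumor 1 (8.96, against 9.71 and 9.47). The astrocyte list averaged 11.73, 10.89 and 10.08 on P21 tumors 1, 2 and 3, against 8.98 to 9.25 in P21 CP, 8.80 to 9.15 in P0 tumors and 8.83 to 9.38 in P0 CP. Neuron markers averaged 10.33, 6.92 and 5.93 on the same 3 tumors, and none of 14 neuron genes was called, with a median interaction of 1.02. On P21 tumors 2 and 3 the neuron and oligodendrocyte means were below those of P21 CP while the astrocyte mean was above it. Without P21 tumor 1, 4 astrocyte genes and 7 reactive astrocyte genes were called positive. In that fit 4 oligodendrocyte lineage genes were called negative, against none over all arrays. Adjacent brain tissue in the dissected pieces was not tested beyond these values. Aqp4, the astrocyte water channel, passed over all arrays (4.14 ± 0.99, adjusted p = 0.0349), but its call was lost without any of 9 arrays (P0 tumors 1 and 3, P0 wild-type 1 and 2, P21 tumors 1 and 2 and each P21 wild-type array), with adjusted p-values from 0.0569 to 0.099.

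**Figure D3:**
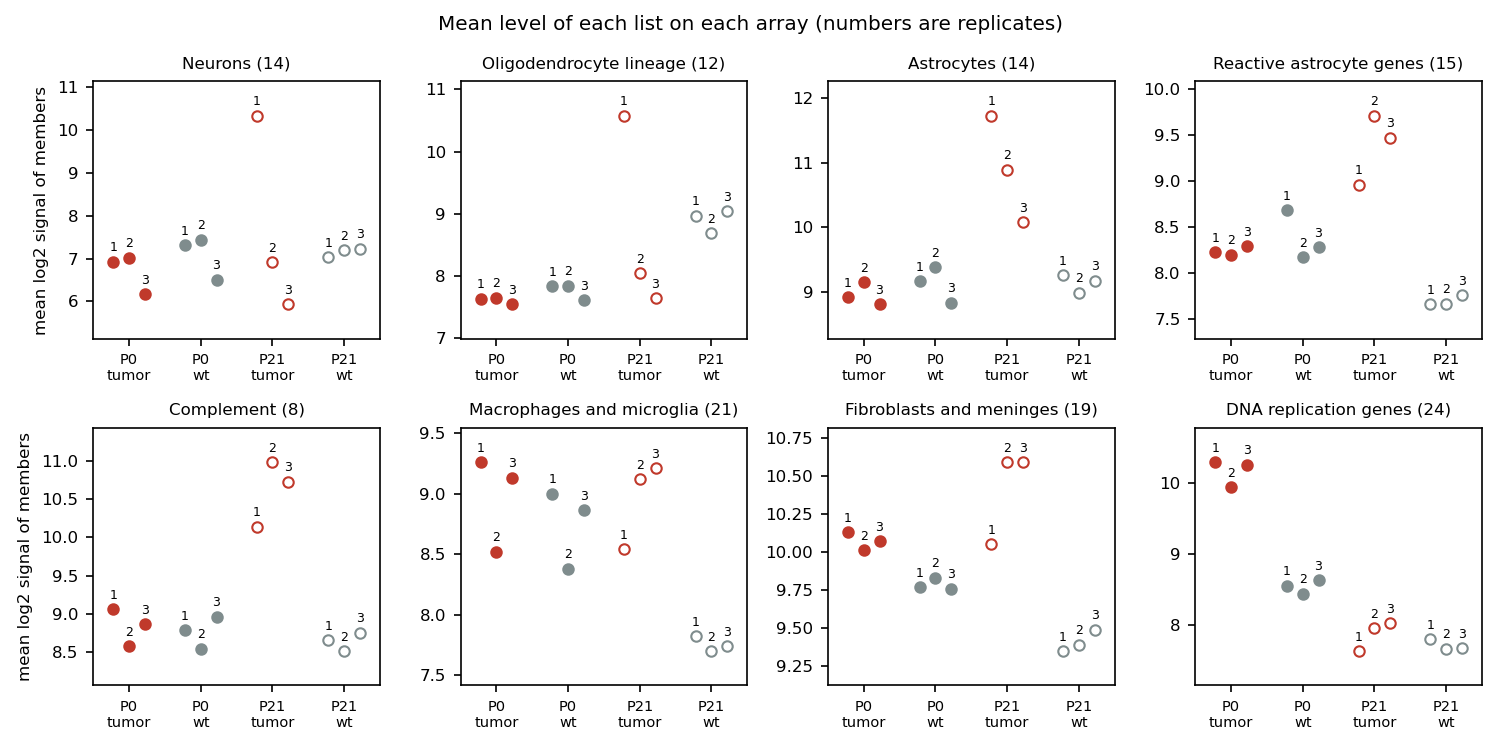
Mean log2 signal of the tested members of 8 lists on each array (vertical axis), by group on the horizontal axis, with the replicate number over each point. P21 tumor 1 is the highest array for neurons (10.33) and oligodendrocyte lineage (10.58), whereas complement, reactive astrocyte and fibroblast genes are higher on P21 tumors 2 and 3 than on P21 tumor 1.

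C4a, a complement gene, had the largest interaction of all genes, 5.59 ± 0.49 (adjusted p = 0.000165). It read 7.08, 6.90 and 6.42 in P0 tumors, 7.57, 6.83 and 6.95 in P0 CP, 12.35, 13.75 and 12.59 in P21 tumors and 7.63, 7.37 and 7.90 in P21 CP. Only the P21 tumors stood out among these groups, 38.5-fold over P21 CP. C4b, which encodes the fourth complement component, had an interaction of 5.35 ± 0.50 (adjusted p = 0.000165), but C4a and C4b are near-identical copies and their probes may not tell them apart. Of 8 complement genes tested, 3 were called (C4a, C4b and Serping1), all positive, against 3.13% of all genes, with a median interaction of 1.00. Serping1 had an interaction of 1.28, and its call was lost without any of 7 arrays (adjusted p-values 0.0541 to 0.09). The other 2 calls are the C4 copies, which may be 1 signal. The mean of the 8 genes, with both C4 copies among them, was 10.14 to 10.99 on P21 tumors and 8.51 to 9.06 on all other arrays. Serpina3n, a secreted protease inhibitor of the acute phase, had an interaction of 4.29 ± 0.59 (adjusted p = 0.00184). Its probe was not well above background on any P0 tumor array, and the P21 tumors were at least 16.6-fold above that level. Pla2g7, which degrades platelet-activating factor, was 2.13-fold lower in tumors at P0 and 6.22-fold higher at P21 (interaction 3.73 ± 0.32, adjusted p = 0.000165). C4a, Serpina3n and Pla2g7 were called without each array in turn, P21 tumor 1 included, where their interactions were 5.89, 3.88 and 3.70.

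Several strongly positive genes belong to other groups. Vtn, the secreted adhesion protein vitronectin, read 11.56, 10.55 and 11.02 in P0 tumors, 9.78, 9.68 and 9.44 in P0 CP, 15.43, 15.46 and 15.16 in P21 tumors and 10.09, 9.94 and 10.36 in P21 CP. The tumor was above CP on all arrays of both ages, by 2.65-fold at P0 and 37.3-fold at P21 (interaction 3.81 ± 0.35, adjusted p = 0.000165). Rpe65, known as the retinoid isomerase of the retinal pigment epithelium, had effects of 0.10 and 4.48 (interaction 4.38 ± 0.53, adjusted p = 0.000729). It dropped out when detection on at least 6 arrays was required, so these fitted values include signals near background. Its interaction ranged from 2.91 to 4.78 over the other alternatives. The organic cation carrier gene Slc22a4 had effects of -0.51 and 3.76 (interaction 4.26 ± 0.43, adjusted p = 0.000246). Gria1, an AMPA-type glutamate receptor subunit, had an interaction of 4.04 ± 0.78 (adjusted p = 0.012) with uneven P21 tumors of 11.55, 9.94 and 8.83. Fam180a, Pamr1 and Fads6 had interactions of 4.25, 4.07 and 4.04, each with no call at P0.

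**Figure D4:**
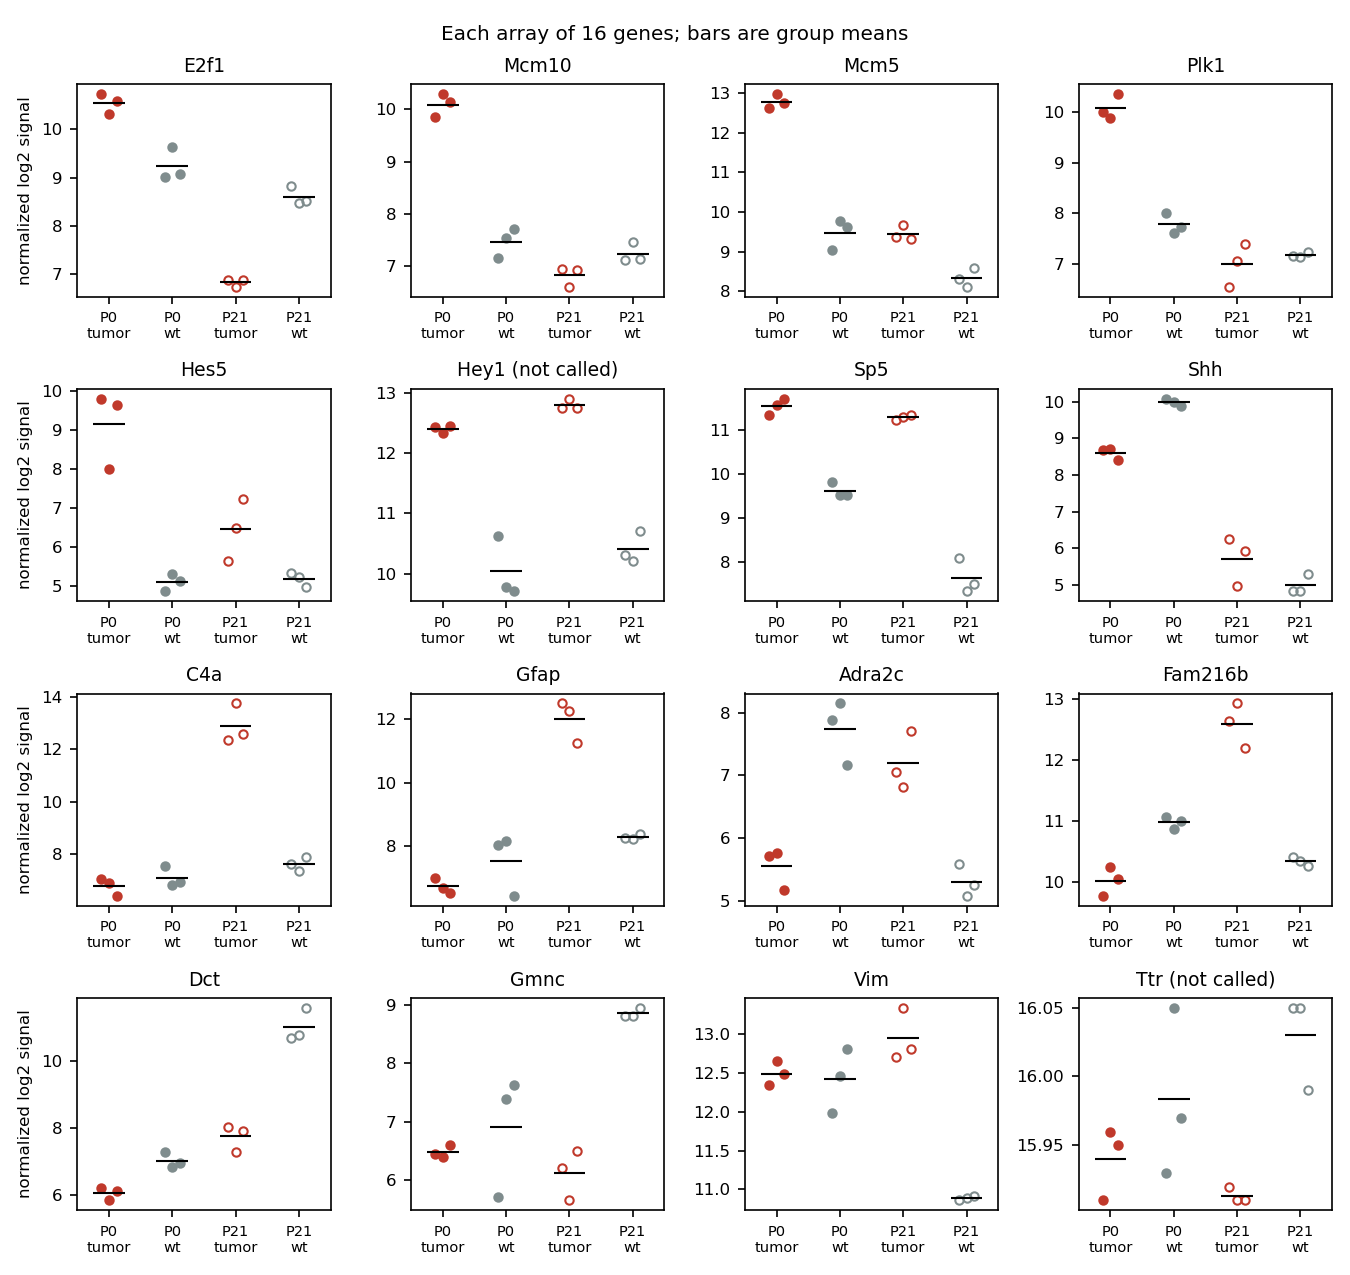
Normalized log2 signal of 16 genes on each array (vertical axes, which differ in range and do not start at 0), by group on the horizontal axis, with bars at group means. E2f1, Adra2c and Fam216b change sides between P0 and P21, C4a and Gfap are high in P21 tumors alone, and Sp5 and Vim stay level in tumors while P21 wild-type CP is lower.

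Of 8 Wnt target genes tested, 7 were called higher in tumors at P0 and 7 at P21, against 5% and 10.5% of all genes, and for 3 of them the effect was larger at P21. In this pathway secreted Wnt proteins stabilize beta-catenin, which acts through TCF/LEF factors on genes that include the pathway's own inhibitors. These 3 were the only calls in the list, whose median interaction was 0.48. The median tumor effect of the 8 genes was 1.86 at P0 and 2.52 at P21. In wild-type CP 5 of the 8 were called lower at P21 than at P0, against 13% of all genes. Sp5, a transcription factor gene directly switched on by Wnt, read 11.33, 11.57 and 11.71 in P0 tumors and 9.83, 9.53 and 9.52 in P0 CP. At P21 it read 11.23, 11.30 and 11.34 in tumors and 8.10, 7.34 and 7.51 in CP. The tumors were alike at both ages and the P21 controls were the lowest arrays, so that the effect went from 3.76-fold to 12.5-fold (interaction 1.73 ± 0.31, adjusted p = 0.00736). Apcdd1, a membrane inhibitor of Wnt, went from 9.04-fold to 26.6-fold (interaction 1.56 ± 0.30, adjusted p = 0.0118), but with no background correction the adjusted p was 0.104. Nkd1, an inhibitor acting on Dishevelled, passed (1.42 ± 0.32, adjusted p = 0.0243), but not without P0 tumor 1, P0 wild-type 2, P21 tumor 2 or P21 wild-type 1 or 3 (adjusted p-values 0.0502 to 0.0809). The mean of its probes gave 0.81 (adjusted p = 0.204), and the call was also lost with no background correction (0.85, adjusted p = 0.072). Axin2, a feedback inhibitor named after its values were seen, had effects of 1.82 and 1.60 (interaction -0.22, adjusted p = 0.789).

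The Sp5 promoter is printed with the TCF/LEF motifs CTTTGAA or CTTTGAT in capitals, the first of which contains the CHR motif. One of these was present in 7.11% of all promoters.
Sp5 promoter, chr2:70474673-70474922, plus strand: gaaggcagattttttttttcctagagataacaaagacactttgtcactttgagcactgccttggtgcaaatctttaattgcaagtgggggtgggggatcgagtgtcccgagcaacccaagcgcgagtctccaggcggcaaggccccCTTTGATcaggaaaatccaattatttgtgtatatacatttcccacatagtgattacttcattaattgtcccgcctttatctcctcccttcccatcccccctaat

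R-spondins, secreted proteins that strengthen Wnt signaling, did not move together. Rspo2 read 7.16, 6.96 and 7.21 in P0 tumors and was not well above background on any array of the other groups, where it read 4.56 to 5.18. The P0 tumors were at least 2.49-fold above P0 CP, and the interaction was -1.76 ± 0.24 (adjusted p = 0.00176). Its probe met the detection filter only through the 3 P0 tumor arrays, the group where it was high, and failed it when any of them was left out. It was called without each of the 9 other arrays, but those fits all keep the P0 tumors and give no separate support. Rspo1 was higher in tumors at P0 (3.53) and at P21 (5.65), where it was not well above background in wild-type CP, so that the P21 effect was at least 28.4-fold. Its interaction of 2.12 ± 0.55 (adjusted p = 0.0486) was lost without any of 9 arrays (P0 tumors 2 and 3, P0 wild-type 1 and 2, P21 tumors 2 and 3 and each P21 wild-type array), with adjusted p-values from 0.0567 to 0.123.

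Of 8 Notch target genes, 6 were called higher in tumors at P0 and 6 at P21, against 5% and 10.5% of all genes. The list had a median interaction of -0.04, with 4 members above 0 and 4 below. Hey1, a repressor directly induced by Notch, read 12.43, 12.33 and 12.45 in P0 tumors, 10.62, 9.79 and 9.71 in P0 CP, 12.74, 12.90 and 12.74 in P21 tumors and 10.32, 10.22 and 10.71 in P21 CP. Its effect was 2.36 log2 at P0 and 2.37 at P21, and the interaction of 0.01 ± 0.34 (adjusted p = 0.993) had a 95% interval from -0.73 to 0.75. Hes1, a repressor with Notch and other inputs, had an interaction of -0.19 ± 0.38 (adjusted p = 0.858). The Notch1 transcript itself, which can include the transgene, had effects of 1.14 and 2.12 (interaction 0.99 ± 0.35, adjusted p = 0.155).

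Hes5 and Dtx1 were the exceptions, in opposite directions. Hes5, a Notch-induced repressor of neural progenitors, read 9.80, 8.01 and 9.65 in P0 tumors and 5.64, 6.50 and 7.24 in P21 tumors, with 4.87 to 5.33 on all wild-type arrays. It was not well above background on any wild-type array, so the tumors were at least 10.3-fold higher at P0 and at least 1.65-fold higher at P21. The interaction was -2.77 ± 0.65 (adjusted p = 0.0305). Its call was lost without any of 7 arrays (P0 tumors 1 and 3, P0 wild-type 1 and 3, P21 tumor 2 and P21 wild-type 2 and 3), with adjusted p-values from 0.0601 to 0.0906. Dtx1, an E3 ubiquitin ligase that binds Notch and is induced by it, read 6.69, 6.57 and 6.41 in P0 tumors, 6.81, 6.94 and 5.87 in P0 CP, 8.48, 8.67 and 7.86 in P21 tumors and 5.96, 6.16 and 5.62 in P21 CP. The P21 tumors alone were raised, 5.36-fold over P21 CP (interaction 2.40 ± 0.42, adjusted p = 0.00715), and the call held without each array.

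The Hes5 promoter holds 2 matches of the RBPJ motif GTGGGAA, in capitals and on opposite strands, a motif found in 7.3% of all promoters.
Hes5 promoter, chr4:154960673-154960922, plus strand: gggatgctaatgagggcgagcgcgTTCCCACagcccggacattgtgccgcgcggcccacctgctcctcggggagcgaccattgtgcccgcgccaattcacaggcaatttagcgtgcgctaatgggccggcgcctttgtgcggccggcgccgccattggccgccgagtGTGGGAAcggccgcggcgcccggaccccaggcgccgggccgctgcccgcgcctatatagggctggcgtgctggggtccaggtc

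Among the Hedgehog genes listed, the only call was that of the ligand gene Shh. Shh read 8.68, 8.72 and 8.40 in P0 tumors and 10.08, 10 and 9.89 in P0 CP. At P21 it read 6.25, 4.97 and 5.92 in tumors and 4.83, 4.85 and 5.31 in CP, where it was not well above background on any array. Newborn tumors were all below newborn CP (2.62-fold lower), and at P21 the groups overlapped. Both tissues had less Shh RNA at P21, by 7.41-fold in tumors and by at least 19-fold in wild-type CP. The fitted interaction was 2.10 ± 0.41 (adjusted p = 0.0118) and the call held without each array. It rests on a P21 wild-type signal at background, where a tumor deficit like that at P0 could not have been seen. None of 5 Hedgehog target genes was called, and their median interaction was -0.70. Ptch1, the receptor gene that is itself a target, had effects of -0.07 and 0.13 (interaction 0.21 ± 0.31, adjusted p = 0.806). Gli1 and Mycn did not meet the detection filter.

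Regulators of the multiciliated fate showed 1 call among 13 genes. Gmnc (geminin coiled-coil, GEMC1), which acts near the top of this program, read 6.44, 6.39 and 6.59 in P0 tumors, 5.71, 7.39 and 7.62 in P0 CP, 6.21, 5.65 and 6.50 in P21 tumors and 8.80, 8.81 and 8.95 in P21 CP. The tumors were alike at both ages, and the P21 controls were above all other arrays. The P21 effect was -2.73 and the interaction -2.30 ± 0.57 (adjusted p = 0.0414). The call was lost without any of 8 arrays (each P0 tumor, P21 tumors 1 and 2 and each P21 wild-type array), with adjusted p-values from 0.0526 to 0.116. Mcidas, which acts below Gmnc, had effects of -0.87 and 0.15 (interaction 1.02 ± 0.34, adjusted p = 0.127), with its probe below background on all P21 arrays. Foxj1, the transcription factor of motile cilia, had -0.39 and -1.02 (interaction -0.63, adjusted p = 0.5). Ccno, a cyclin-like protein of centriole amplification, had -1.06 and -0.70 (interaction 0.36, adjusted p = 0.613).

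Of 60 motile cilium components tested, 4 were called, all positive, which is 6.67% against 3.13% of all genes. The list had a median interaction of -0.01, 30 members on each side of 0, and a median tumor effect of -0.54 at P0 and -0.47 at P21. Fam183b, a ciliary protein gene, had effects of -0.75 and 2.43 (interaction 3.18 ± 0.57, adjusted p = 0.00776), and the call held without each array. Dnah2, an inner dynein arm heavy chain, had effects of -0.01 and 1.70 by its brightest probe (interaction 1.71 ± 0.30, adjusted p = 0.00721), but the adjusted p was 0.2 for the mean of its probes. None of 31 intraflagellar transport and BBSome genes was called.

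Among the genes whose tumor effect went from lower to higher was Adra2c, an alpha-2 adrenergic receptor. It read 5.71, 5.77 and 5.17 in P0 tumors, 7.88, 8.15 and 7.17 in P0 CP, 7.05, 6.82 and 7.71 in P21 tumors and 5.58, 5.08 and 5.25 in P21 CP. The P21 controls were not above background, so the P21 tumors were at least 2.73-fold higher, whereas the P0 tumors were 4.56-fold lower (fitted interaction 4.08 ± 0.43, adjusted p = 0.000272, which rests on a signal at background). Akap14, an anchor of protein kinase A found in cilia, was 2.61-fold lower at P0 and 4.98-fold higher at P21 (interaction 3.70 ± 0.38, adjusted p = 0.000246). Fam216b read 9.78, 10.25 and 10.05 in P0 tumors, 11.07, 10.87 and 11.01 in P0 CP, 12.65, 12.94 and 12.20 in P21 tumors and 10.42, 10.35 and 10.27 in P21 CP. Its groups were separate at both ages and in opposite order (interaction 3.21 ± 0.30, adjusted p = 0.000165). Gpx3, a secreted glutathione peroxidase, went from 2.72-fold lower to 4.11-fold higher (interaction 3.48 ± 0.58, adjusted p = 0.00521). Gm14685 had effects of -1.03 and 2.44, and Id4, a target of BMP signaling, had -0.90 and 1.11. The Id4 interaction of 2.02 was no longer called when its probes were averaged (1.24, adjusted p = 0.401).

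The lists of mature CP function given here had median interactions from -0.06 to 0.19. Called members made up 21.1% of ion and water transport genes, 16% of secreted and surface protein genes and 6.67% of solute carriers and efflux pumps, against 4.43% of all genes. Slc6a13, a transporter of GABA and taurine, read 10.94, 10.72 and 10.06 in P0 tumors, 10, 11.62 and 10.55 in P0 CP, 10.55, 10.99 and 10.35 in P21 tumors and 7.51, 8.15 and 8.21 in P21 CP. Only the P21 controls were low (interaction 2.82 ± 0.54, adjusted p = 0.0117). It was 1 of 2 called among 30 solute carriers and efflux pumps, both positive, and the list median was 0.19. Of 25 secreted and surface protein genes 4 were called, all positive, with a list median of -0.06, and 1 of these calls held without each array in turn. Of 19 ion and water transport genes 2 were called positive (Aqp4 and Atp1b2) and 2 negative (Kcne2 and Trpv4), and none of these 4 calls held without each array in turn. One of the negative ones, the osmosensitive channel gene Trpv4, was 1.11 log2 units below CP at P0 and 2.46 below it at P21 (interaction -1.34 ± 0.30, adjusted p = 0.0229). Its call was lost without P0 tumor 1, P0 wild-type 3, P21 tumor 2 or P21 wild-type 2 or 3 (adjusted p-values 0.0551 to 0.0749), and the mean of its probes gave -2.17 (adjusted p = 0.234). The water channel gene Aqp1 had effects of -1.13 and -2.21 (interaction -1.08 ± 0.41, adjusted p = 0.185, or 0.0494 in the replicate block fit). Otx2 and Lmx1a, which encode homeodomain factors of the CP and were named after their values were seen, had interactions of -0.16 (adjusted p = 0.879) and -0.05 (adjusted p = 0.952).

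Neural progenitor genes included 3 positive calls among 9 (Vim, Slc1a3 and Prom1), against 3.13% of all genes. The list median was 0.22, with 5 members above 0 and 4 below. Vim and Slc1a3 are also counted with the astrocyte genes above, and the Prom1 call was lost without any of 10 arrays (adjusted p-values 0.0531 to 0.126). Vim, the intermediate filament vimentin, read 12.34, 12.65 and 12.48 in P0 tumors, 11.98, 12.46 and 12.81 in P0 CP, 12.71, 13.34 and 12.81 in P21 tumors and 10.86, 10.89 and 10.92 in P21 CP. The wild-type tissue was 2.89-fold lower at P21 than at P0, the tumors differed by 0.46 log2 in the other direction, and the interaction was 1.99 ± 0.33 (adjusted p = 0.0058). Kit, the stem cell factor receptor that marks mast cells and melanocytes, showed the same order of groups, with effects of 0.90 and 2.68 (interaction 1.78 ± 0.33, adjusted p = 0.00971, or 0.297 for the mean of its probes). Of 7 mast cell genes, 6 had an interaction above 0 (list median 0.81) and Kit was the only call. Most of this list did not share the higher signal of Kit in tumors. The median tumor effect of the list was -1.41 at P0 and -0.91 at P21, against -0.06 and -0.05 over all genes. At P0, 5 of the 7 genes were called lower in tumors and 1 higher, and at P21 4 were called lower and 2 higher. Of all 12379 genes, 778 were called lower and 619 higher at P0, and 921 lower and 1300 higher at P21. Dct, a melanin synthesis enzyme, read 6.22, 5.85 and 6.14 in P0 tumors, 7.3, 6.84 and 6.95 in P0 CP, 8.04, 7.29 and 7.93 in P21 tumors and 10.70, 10.78 and 11.59 in P21 CP. It was higher at P21 in both tissues, more so in wild-type CP, and the deficit in tumors went from 1.95-fold to 9.66-fold (interaction -2.31 ± 0.39, adjusted p = 0.0059). Dct did not stand for the melanocyte list, where 6 of 10 genes tested had an interaction above 0 and 4 below (median 0.18). Its calls were Kit, positive, and Dct, negative, against 3.13% and 1.3% of all genes. The median tumor effect of the list was -0.62 at P0 and -0.59 at P21.

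The stromal and immune lists given here had median interactions from -0.11 to 0.98, and all of their calls were positive. Calls made up 14.3% of macrophage and microglia genes, 15.8% of fibroblast and meninges genes and 13.3% of interferon response genes, against 3.13% of all genes. All 21 macrophage and microglia genes had an interaction above 0, with a median of 0.98, and 3 were called. The mean of the 21 genes was 7.70 to 7.82 on P21 wild-type arrays, 8.54 to 9.21 on P21 tumors, 8.52 to 9.26 on P0 tumors and 8.38 to 9.0 on P0 wild-type arrays, so that P21 CP was the low group. Ctss, a lysosomal protease of these cells, had effects of -1.02 and 0.60 (interaction 1.62 ± 0.34, adjusted p = 0.0196, or 0.0546 with array weights per group). Without P21 tumor 1 there were 6 calls, and without P0 tumor 3, P21 tumor 2 or 3, or any P21 wild-type array there was 1. Of 19 fibroblast and meninges genes 3 were called positive, with a median of 0.67, and Slc6a13, counted above with the solute carriers, is among them. Col1a2, a fibrillar collagen chain, had effects of 0.99 and 2.97 (interaction 1.97 ± 0.34, adjusted p = 0.00681). The interferon-induced gene Ifit2 had effects of -1.03 and 0.73 (interaction 1.76 ± 0.35, adjusted p = 0.0136), and 2 of 15 interferon response genes were called. None of 12 antigen presentation genes was called. Of 13 neutrophil genes 9 had an interaction below 0 (median -0.11). Their only call was Lcn2 (4.07), which was lost without any of 9 arrays (adjusted p-values 0.0613 to 0.1). The medians were 0.11 for 15 endothelial genes and 0.00 for 12 genes of pericytes and smooth muscle. Each of these lists had 1 positive call, which did not hold without each array in turn.

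**Figure D5:**
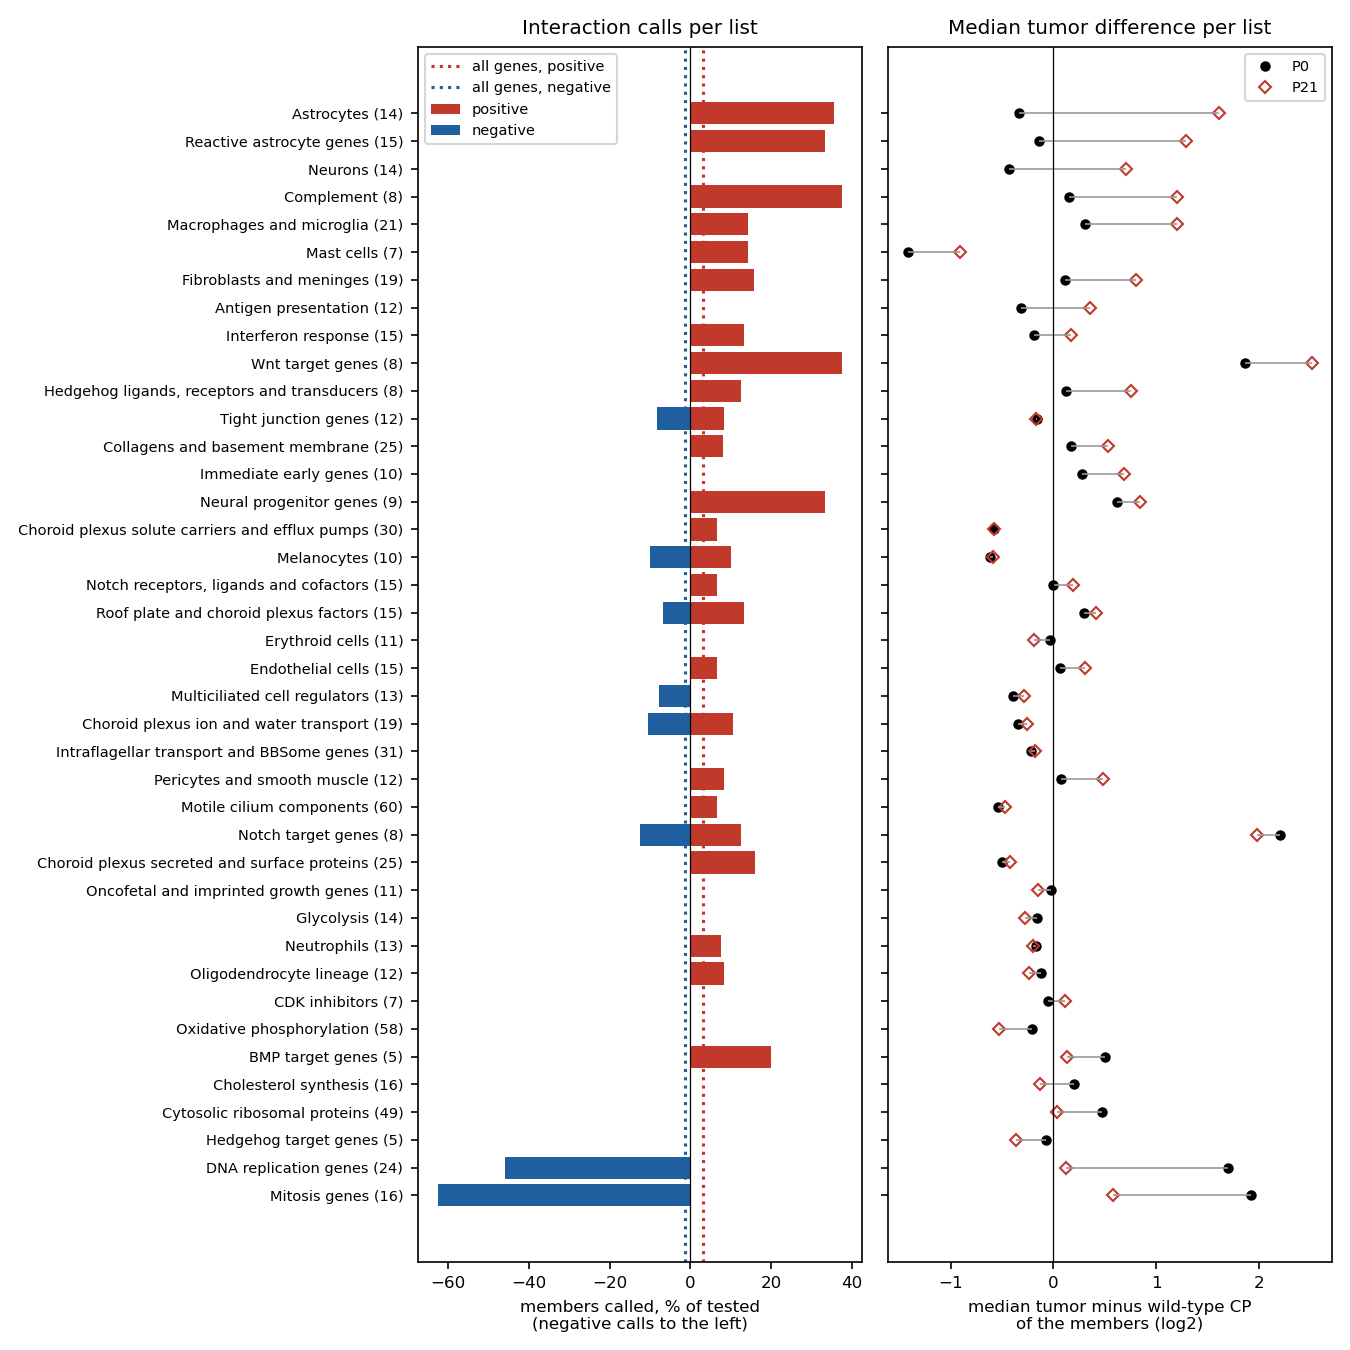
Left, share of tested members of each list called positive (to the right) or negative (to the left) in the interaction, in percent, with dotted lines at 3.13% and 1.3% for all genes. Right, median tumor minus wild-type difference (log2) of the tested members at P0 and at P21, where replication and mitosis genes drop and astrocyte genes rise from P0 to P21. The number of genes tested stands after each name, and lists with under 5 tested genes are left out.

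Metabolic gene lists had small shifts with no calls. For 58 oxidative phosphorylation genes the median interaction was -0.30 and 52 were below 0, and for 49 cytosolic ribosomal protein genes it was -0.49 and 45 were below 0. For 16 cholesterol synthesis genes it was -0.42. Ribosomal gene means ranged from 12.79 to 13.76 within P0 wild-type CP and from 12.30 to 13.10 within P21 tumors, a spread between arrays of one group that was larger than the list's median shift. No member of the lists of CDK inhibitors, oncofetal genes, glycolysis, immediate early genes or erythroid genes was called.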

How the data were processed

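RNA of 12 pools was hybridised to Illumina mouse BeadChips in 1 colour, with 3 arrays in each of 4 groups. Per the file headers, the authors deposited the average bead signal intensity of each of 45281 probes with a detection p-value for every array. The authors also deposited a table of normalized intensities on a linear scale, made by a method that no source used here names, which served as an alternative.

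The intensities were background-corrected with normexp (offset 16, with control levels that limma estimates through the detection p-values), quantile-normalized over all 12 arrays and put on the log2 scale in limma 3.58.1 (R 4.3.3). Probes with 1 gene symbol and a detection p-value under 0.05 on 3 or more arrays were kept, which left 20021 probes of 24000 detected ones. Of all probes 34885 had 1 symbol in the platform annotation updated through RefSeq, 18 had several and 10378 were not listed. The brightest probe stood for each of 12379 genes. "Not well above background" means a detection p-value of 0.05 or more on every array of a group, and a bound on a fold then uses, per array, the dimmest signal among detected probes.

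The model gave each group its own mean, fitted to the 12 arrays together by lmFit and eBayes, and p-values were adjusted by Benjamini-Hochberg over all genes. The script was tested on simulated data. The number of arrays limits the precision.

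The genes, lists and rules were chosen with earlier results of these data known. Genes named are preselected Notch, Hedgehog, Wnt and multiciliated cell genes, the 15 largest calls on each side, up to 6 called members of each of 42 gene lists and up to 10 reversals. Other genes, and list members that did not pass, were named after their values were seen. Alternatives changed background correction, scaling, filter, probe choice, variance model, replicate block and the arrays used.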

Additional observations from a re-analysis of the deposited data

Results flagged for a closer look

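The effects at the 2 ages differed by the interaction term for 549 genes, and 23 of these had tumor effects past the threshold in opposite directions. Among the reversals that went from lower to higher, Adra2c had an interaction of 4.08, Pla2g7 of 3.73, Akap14 of 3.70, Gpx3 of 3.48, Gm14685 of 3.47, Fam216b of 3.21, 3300002A11Rik of 2.80 and Id4 of 2.02 log2. The call of 3300002A11Rik was lost without P0 tumor 3, P21 tumor 2 or P21 wild-type 1 (adjusted p-values 0.0513 to 0.0567). Among those that went from higher to lower, E2f1 had -3.07, Ddn -2.98 and Espl1 -2.77. Genes of the pathways named in the series title whose effects differed between the ages were Shh (2.10), Hes5 (-2.77) and Gmnc (-2.30). The calls of Hes5 and Gmnc were each lost on leaving out some single arrays, as given with their values above. The Shh value rests on a P21 wild-type signal at background, and the Hes5 value on a wild-type signal at background at both ages. With 3 arrays a group, no test for an outlying array was run on single genes.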

How the results depend on the processing

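No called interaction changed sign under any alternative. Of 103 named genes, 5 uncalled ones with interactions near 0 (Hes1, Hey1, Lmx1a, Otx2 and Ttr) changed sign under at least 1. Of the 549 genes, 248 passed without each of the 12 arrays in turn and 212 passed under all 13 other alternatives. Leaving out each array in turn gave 280 to 723 interaction calls (187 to 489 positive, 85 to 234 negative), 730 to 1721 calls of the tumor effect at P0 and 1429 to 2631 at P21. With probes detected on all 12 arrays, 346 genes were called, 84 of them negative, with fewer genes tested. At an adjusted p under 0.01 there were 202 (148 positive, 54 negative). Array weights per group gave 644 tumor calls at P0 and 3517 at P21. The 6 arrays of each age alone gave 561 at P0 and 3178 at P21, against 1397 and 2221 in the main fit. The main fit shares 1 variance per gene over all groups, which these alternatives do not. The median SD of a gene was 0.32 in P0 tumors, 0.33 in P0 CP, 0.24 in P21 tumors and 0.16 in P21 CP. The cause of the different counts was not tested further. All other settings gave 459 to 716 interaction calls. Median scaling gave the highest of these, with 80% positive against 70.7% and the median of all genes moved to 0.12 log2, so that interactions there are read against that shift. The replicate block gave 611 calls, 479 of them shared, and brought Aqp1 past the threshold (adjusted p = 0.0494). Same-numbered tumor and wild-type arrays correlated in their deviations by 0.425, 0.432 and 0.104 at P0 and by -0.082, -0.028 and -0.139 at P21, so they were not taken as pairs over all arrays, although all 3 newborn pairs exceed 0.1 and pairing at P0 is not excluded. Without P0 wild-type 1 and P21 tumor 1, chosen after seeing the data, 611 genes were called. With 3 pools a group, differences smaller than about 1 log2 unit were seldom called. Genes near background have only bounds.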

Other observations

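Circadian clock genes, a list added after the data were seen, tended to the positive side. Of 13 tested, 10 had an interaction above 0 and 3 were called, all positive, with a list median of 0.55 log2 and median tumor effects of -0.45 at P0 and 0.28 at P21. The called genes were the clock repressors Nr1d1 (2.55, adjusted p = 0.0474) and Nr1d2 (1.18, adjusted p = 0.0161) and the clock output factor Tef (1.34, adjusted p = 0.0206). None of them passed without each of the 12 arrays in turn: Nr1d1 passed in 2 of these fits, Tef in 7 and Nr1d2 in 9. Positive calls made up 3.13% of all genes. The hour at which tissue was taken is not stated by the labels.

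Replication-dependent histone genes, also listed after the data were seen, tended to the negative side. Of 45 tested, 38 had an interaction below 0 and 7 were called, all negative, against 1.3% of all genes. The list median was -0.74, with median tumor effects of 0.30 at P0 and -0.86 at P21. Of the called genes, H2ac13 and H3c4 passed in 3 of the 12 fits without 1 array and H2ac22 in 4, and the others in all 12. H2ac12 had an interaction of -2.95 (adjusted p = 0.00393) and H2ac15 one of -2.72 (adjusted p = 0.0114). Their probes may read near-identical copies, so values of single genes are uncertain.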
